A study of Mus musculus with 141 samples.

Results

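Reads from single mouse bone marrow progenitors were used to describe 9 genes of 2 actin-binding families, the gelsolin family (Scin, Gsn, Capg, Flii and Svil) and the class I myosins (Myo1e, Myo1f, Myo1g and Myo1d), out of 46041 nuclear-encoded genes in the table of read counts. The 9 genes were listed with their levels in these cells already known, so the difference between the 2 populations is described here by its size and no p-value is attached to it. Scin, which encodes scinderin, was read at 104 CPM or more in each basophil/mast cell progenitor that passed the filters. CPM are counts scaled to 1000000 nuclear-encoded counts. Scin had almost no reads in granulocyte/monocyte progenitors. Its relatives were read in some cells and not in others in both populations.

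The study sorted single cells from the bone marrow of 3 female C57BL/6 mice, with no other genotype, treatment or age given in the labels. Basophil/mast cell progenitors (BMCP, 94 cells), bone marrow cells thought to give rise to basophils and mast cells, were gated as live, lineage-negative and Sca1-negative cells that were positive for cKit and high for integrin beta7 and CD16/32. Granulocyte/monocyte progenitors (GMP, 47 cells) are known mainly as the source of neutrophils and monocytes, and their gate left out the BMCP. No label says which mouse a cell came from, so each population is 1 sample without replicates and no test takes cells as replicates. Poisson limits cover the counting of reads. Clopper-Pearson limits cover the drawing of cells within the 1 sample, and neither covers differences between mice.

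After filtering, 89 BMCP with 96129 to 2416630 counts each and 41 GMP with 130191 to 3688848 counts each remained. The median number of genes counted was 5440 in BMCP and 7001 in GMP. The mast cell markers fixed for the check of the labels (Gzmb, Cma1, Mitf, Tpsb2, Tpsab1 and Mcpt4) summed to a median of 6513 CPM per BMCP, with a range of 39.3 to 43324, and to 1.34 CPM per GMP, with a range of 0 to 64.5. Mcpt4 was at 0 in BMCP, and Tpsb2, Tpsab1 and Mcpt4 were at 0 in GMP. The neutrophil progenitor markers (Mpo, Elane, Prtn3, Ctsg, Cebpe, Csf3r and Ms4a3) summed to a median of 8.19 CPM per BMCP (1.05 to 2922) and 46524 per GMP (543 to 101682). The cycling genes Mki67, Top2a, Mcm5 and Rrm2 summed to a median of 1.54 CPM per BMCP (0 to 2819) and 927 per GMP (0 to 2625). The genes shared by basophils and mast cells had a median of 7585 CPM per BMCP (1692 to 42829) and 1021 per GMP (21.5 to 8548), and the basophil list had 171 (0 to 16918) and 35.4 (0 to 3183). The erythroid list had a median of 185 per BMCP and 0 per GMP (highest cells 3032.5 and 1773), and the stem and multipotent list had 146 and 9.92 (highest 2320 and 769). The monocyte and dendritic cell list had 184 and 237, the megakaryocyte list 18.5 and 1.61, and the eosinophil and lymphoid lists stayed under 1 CPM at the median in both. Such sums can join genes that went opposite ways. Of the monocyte and dendritic cell genes, 6 had at least 1 CPM in either population. In summed level 1 of them was at least 2-fold higher in BMCP and 4 were at least 2-fold lower. In the stem and multipotent list it was 1 and 1 of 3, and in the shared list 6 and 1 of 7. Over all 14554 such genes the shares were 25.8% and 21%. The part of the marker genes in the differences below was not tested. The header of the count table orders the columns in steps of the cell number and starts this stepping anew after BMCP 47 and after BMCP 94. No label says what these 3 runs of columns are. BMCP 1 to 47 and BMCP 48 to 94 are set side by side below only as a split of the cells, and the GMP have a run of their own.

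Gelsolin family proteins bind actin through repeated gelsolin-like domains. Several of them cut filaments when calcium rises and then cap the fast-growing barbed ends, which loosens the actin layer beneath the plasma membrane. Class I myosins are single-headed motors that bind membrane lipids with their tails and link actin to the membrane in endocytosis, phagocytosis and cell migration. Mast cells and basophils release preformed granules across this cortical actin layer.

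Levels are reads summed over the cells of a population, in CPM, and ratios are log2 values of BMCP over GMP after adding 1 CPM to each. Of the 9 genes, 7 were at least 2-fold higher in BMCP, none was at least 2-fold lower, and Capg and Flii lay within 2-fold. The same rule called 25.8% of the 14554 genes with at least 1 CPM in either population higher in BMCP, and 21% lower. The median log2 ratio was 1.99 over the 9 genes and 0.04 over all 14554. Since the genes were chosen with this contrast known, nothing is read from these counts. When levels were scaled to spike-in RNA, the median of all genes fell to -0.74. Then 5 of the 9 genes were at least 2-fold higher and none lower, beside 14% and 41.4% of all genes.

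**Figure D1:**
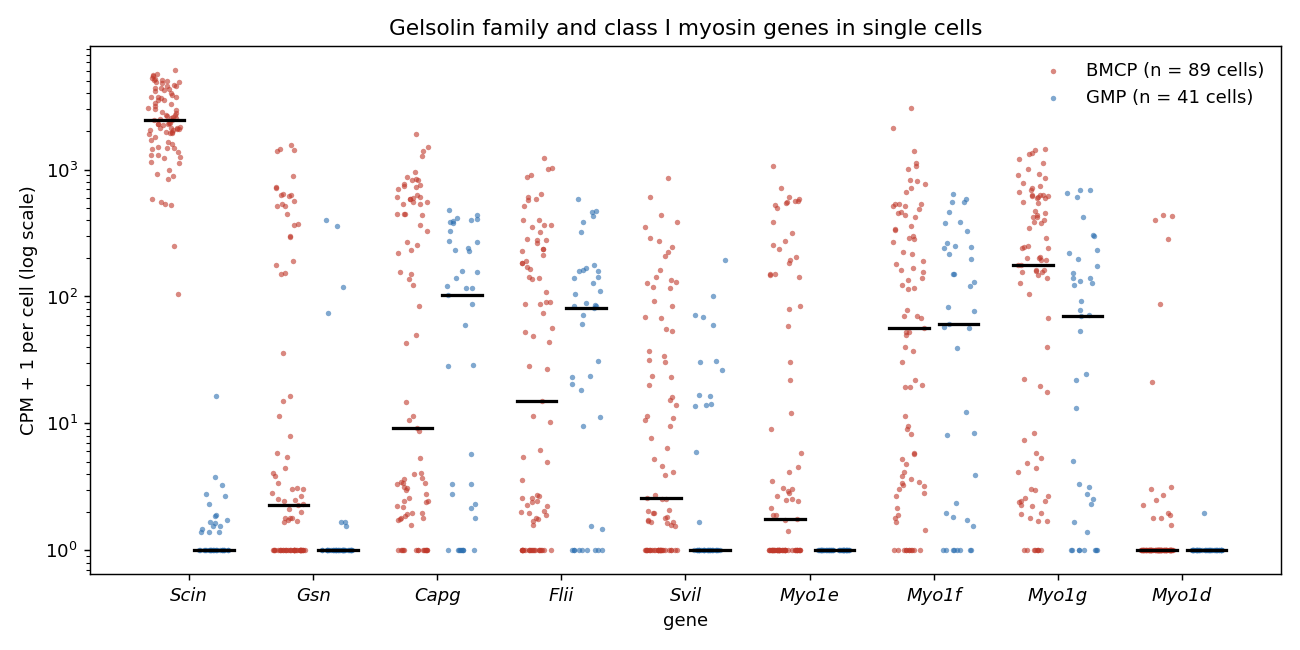
CPM plus 1 on a log scale (vertical axis) in each kept cell for the 9 genes (horizontal axis), with BMCP in red, GMP in blue and a black bar at the median of the cells. Scin is the gene whose BMCP values, from 104 CPM, all lie above its GMP values, which reach 15.4 CPM, while the other 8 genes have cells at 0 in both populations.

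Scin (ENSMUSG00000002565, GRCm38 chr12:40059769-40134228, minus strand) encodes scinderin, also called adseverin, a calcium-dependent protein that severs and caps actin filaments and is known from secretory cells. Per cell, Scin ranged from 104 CPM in BMCP 37 to 6101 CPM in BMCP 47, with a median of 2446. In GMP the lowest and the median cell had 0, and the highest, GMP 8, had 15.4 CPM, which was 2 reads. The kept cells of the 2 populations did not overlap, and the lowest kept BMCP stood 6.79 times above the highest kept GMP. The next lowest BMCP had 247 CPM, and the middle 50% of BMCP lay between 1658 and 3740 CPM. Summed over cells, BMCP had 2936 CPM (95% Poisson limits 2924 to 2948) and GMP 0.450 CPM (0.291 to 0.665), a 6520-fold ratio (4417 to 10076).

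All 25 Scin reads of the GMP came from 17 of 41 cells, 11 of which held a single read and none more than 3. That level was 0.0153% of the BMCP level, and whether it came from the GMP themselves was not tested. After each cell was thinned to 200000 reads, Scin was detected at 2 or more reads in 86 of 86 BMCP and in 0 of 40 GMP. The Clopper-Pearson upper limit of this GMP share is 8.81%, and a floor of 3 cells of 40 is 7.5%. The thinned BMCP held a median of 499.5 Scin reads and at least 18, and 84 of them held 100 or more. Of all 14554 genes, 85 (0.584%) were detected in every thinned BMCP, and 38 (0.261%) reached 10 or more reads in each of them. At this depth Scin was the 1 gene (0.00687%) detected in every thinned BMCP and in no thinned GMP. Thinning to 200000 reads left out GMP 8, the GMP with the highest Scin CPM. At the shallower depth tried as an alternative, Scin was detected in 88 of 88 BMCP and in 1 of 41 GMP (2.44%). The result of 0 of 40 GMP therefore depended on the depth. A complete separation of the kept cells by CPM was seen for 2 genes (0.0137%), Scin and Gzmb, which encodes the granule protease granzyme B. Gata2 is a transcription factor gene of mast cells and basophils. In the 18 thinned GMP with 10 or more reads of it, Scin totalled 14 reads before thinning, with at most 3 in a cell.

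Between BMCP, Scin varied less than most genes of its level. The SD of its CPM over the 89 BMCP was 0.536 of the mean. Of the 68 genes with a mean of at least 1000 CPM in BMCP, 12 had a lower ratio of SD to mean, among them the actin monomer-binding genes Pfn1 (0.41) and Tmsb4x (0.43) and the actin gene Actb (0.46). Among the 41 genes within 2-fold of its mean the median ratio was 0.635, and 10 of them (24.4%) lay below Scin. The median cell had 2144 CPM in BMCP 1 to 47 and 2959 CPM in BMCP 48 to 94. Over the 89 BMCP, Scin had a Spearman rho of 0.21 with total counts, 0.23 with the number of genes counted and -0.23 with the spike-in share. Over all genes the ratio of SD to mean fell as the mean rose, as the plot of spread against mean shows. The part of the mean in the ratio of Scin was not tested.

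**Figure D2:**
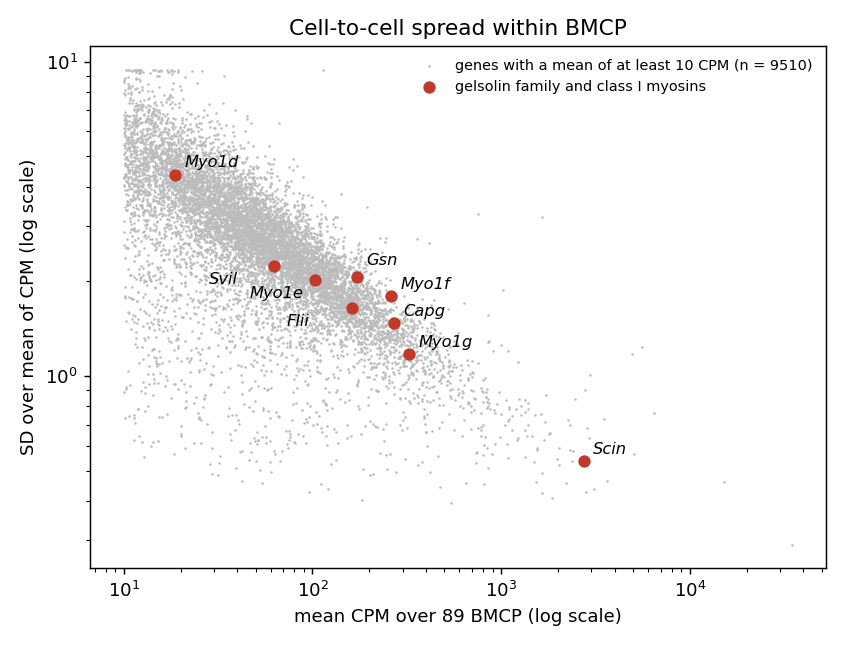
SD of CPM over the mean of CPM (vertical axis, log scale) against the mean CPM over 89 BMCP (horizontal axis, log scale), with grey points for genes with a mean of at least 10 CPM and red points for the 9 genes. Scin lies at the high-mean end with a ratio of 0.536, and the other 8 lie at lower means within the cloud of genes whose SD exceeds the mean.

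Levels of different genes were set side by side per kilobase of merged exons, a length that joins the exons of all annotated transcripts of a gene. It can exceed the length of the transcripts read, so orders and percentages per kilobase are approximate. Scin stood at 979 CPM per kb in BMCP. This was 82.2% of the 1191 CPM per kb of the gelsolin family, counted over the 5 genes above with Vill, Vil1 and Avil. Capg followed at 110, Gsn at 61.1, Flii at 29.9, Svil at 5.41 and the villin-like gene Vill at 5.27, and the villin and advillin genes Vil1 and Avil were at 0. The quartile range of the cells of Scin lay apart from that of Capg, and every later pair of neighbours in this order overlapped. In GMP the family summed to 117 CPM per kb, led by Capg at 61.9 (53.1%), Flii at 27.1 (23.3%) and Vill at 18.1 (15.5%), with Gsn at 7.94, Svil at 1.29 and Scin at 0.150. There every pair of neighbours overlapped.

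Gsn (ENSMUSG00000026879, chr2:35256380-35307892, plus strand) encodes gelsolin, the founding actin-severing and capping protein of the family. Per cell it ran from 0 over a median of 1.26 to 1554 CPM in BMCP, with 36 of 89 cells without a read. In GMP it ran from 0 over a median of 0 to 398 CPM, with 34 of 41 cells without a read. The populations overlapped. Thinned cells with 2 or more reads were 25 of 86 BMCP and 4 of 40 GMP, and those with 10 or more were 21 (24.4%, 95% Clopper-Pearson limits 15.8 to 34.9) and 4 (10%, 2.79 to 23.7). The sum was 193 CPM (190 to 196) over BMCP, of which 7 cells held 50%, and 25.1 CPM (23.8 to 26.4) over GMP, a log2 ratio of 2.89. The GMP value rested on few cells: without GMP 30 it was 9.30 CPM and the ratio 4.23. Without BMCP 67 the BMCP value was 160 CPM and the ratio 2.63. Of the 4 Gsn-positive GMP, 3 had 10 or more reads of Gata2, against 18 such cells among all 40.

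Capg (ENSMUSG00000056737, chr6:72544391-72562983, plus strand) encodes a protein that caps barbed ends without cutting filaments. BMCP ran from 0 over a median of 8.22 to 1895 CPM, and GMP from 0 over 102 to 483 CPM. At 2 or more thinned reads it was detected in 44 of 86 BMCP (51.2%, 40.1 to 62.1) and 24 of 40 GMP (60%, 43.3 to 75.1). The difference between these shares was not tested. The cells with 10 or more reads, 39 BMCP and 23 GMP, had a median of 587 CPM in BMCP and 240 in GMP. The order of the populations therefore depended on the summary. The summed level was 279 CPM in BMCP and 157 in GMP (log2 0.83), while the log2 ratio of the cell medians was -3.48. With spike-in scaling the summed ratio was -0.04.

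Flii (ENSMUSG00000002812, chr11:60714123-60727263, minus strand) encodes the flightless I protein, which joins gelsolin-like domains to leucine-rich repeats. Its BMCP values ran from 0 over a median of 14.1 to 1232 CPM, and GMP from 0 over 79.6 to 585 CPM. At 2 or more thinned reads it was detected in 46 of 86 BMCP (53.5%, 42.4 to 64.3) and 30 of 40 GMP (75%, 58.8 to 87.3). The summed levels of 151 and 137 CPM gave a log2 ratio of 0.14, which was -0.05 without BMCP 51, -0.07 for BMCP 48 to 94 alone and -0.73 with spike-in scaling. Of its exon bases, 64 (1.27%) overlap Llgl1 on the opposite strand, and reads there cannot be assigned because the protocol does not mark strand.

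Svil (ENSMUSG00000024236, chr18:4920540-5119299, plus strand) encodes supervillin, a large membrane-bound member that also binds myosin II. BMCP ran from 0 over a median of 1.57 to 861 CPM, and GMP from 0 over 0 to 192 CPM. It was detected in 33 of 86 BMCP (38.4%, 28.1 to 49.5) and 10 of 40 GMP (25%, 12.7 to 41.2), a difference that was not tested. The sums were 57.9 and 13.8 CPM, a log2 ratio of 1.99. BMCP 1 to 47 summed to 82.2 CPM, or 66.5 without BMCP 44, and BMCP 48 to 94 to 43.2, or 25.8 without BMCP 80.

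Myo1e (ENSMUSG00000032220, chr9:70207350-70399766, plus strand) encodes a long-tailed class I myosin with an SH3 domain, known from endocytosis and phagocytosis. It had 10503 reads in BMCP and none in GMP. The BMCP spanned 0 over a median of 0.762 to 1058 CPM in BMCP 13, with 42 of 89 cells without a read, and all 41 GMP were at 0. The populations thus overlapped only at 0. Thinned cells with 2 or more reads were 27 of 86 BMCP, and 24 of them (27.9% of BMCP, 18.8 to 38.6) had 10 or more. In GMP it was 0 of 40, with the same floor of 7.5% and upper limit of 8.81% as for Scin. The summed level was 125 CPM (122 to 127). It was 2307-fold higher than the GMP floor of 0.0540 CPM, set at 3 counts over the population. Against the upper Poisson limit of 0.0664 CPM for 0 reads it was 1876-fold higher. BMCP 1 to 47 summed to 121 CPM and BMCP 48 to 94 to 127. In the 18 thinned GMP with 10 or more Gata2 reads there was no Myo1e read.

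Myo1f (ENSMUSG00000024300, chr17:33555707-33607764, plus strand) encodes the close relative of Myo1e that is best known from neutrophils and other myeloid cells. BMCP ran from 0 over a median of 55.1 to 3045 CPM in BMCP 51, and GMP from 0 over 59.8 to 638 CPM. The populations overlapped, and the GMP stopped short of the highest BMCP. It was detected in 56 of 86 BMCP (65.1%, 54.1 to 75.1) and 26 of 40 GMP (65%, 48.3 to 79.4). The sums were 308 and 145 CPM, a log2 ratio of 1.08 that did not hold its 2-fold size. It was 0.85 without BMCP 51, 0.78 from the mean of the cells, 0.19 for BMCP 1 to 47 alone, 0.22 with spike-in scaling and -0.12 from the cell medians. BMCP 1 to 47 summed to 165 CPM and BMCP 48 to 94 to 394.

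Myo1g (ENSMUSG00000020437, chr11:6506548-6520965, minus strand) encodes a short-tailed myosin found mainly in blood cells, where it is known from work on lymphocyte membranes. Its BMCP values ran from 0 over a median of 176 to 1449 CPM, and GMP from 0 over 69.5 to 691 CPM. It was detected in 58 of 86 BMCP (67.4%, 56.5 to 77.2) and 24 of 40 GMP (60%, 43.3 to 75.1). At 10 or more thinned reads it was 53 (61.6%) and 20 (50%), and these differences were not tested. The sums of 317 and 139 CPM gave a log2 ratio of 1.19, with 0.87 for BMCP 1 to 47 alone and 0.32 with spike-in scaling. Unlike Myo1f, the cell medians gave the same order, with a log2 ratio of 1.33.

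Myo1d (ENSMUSG00000035441, chr11:80482126-80780025, minus strand) encodes a short-tailed myosin known from endosome traffic and from left-right patterning. It was read in 16 of 89 BMCP and with 1 read in 1 GMP. BMCP ran from 0 over a median of 0 to 439 CPM in BMCP 67, and 6 of 86 thinned BMCP had 2 or more reads and 5 (5.81%, 1.91 to 13) 10 or more, against 0 of 40 GMP. The summed level was 27.9 CPM, or 16.9 without BMCP 67, and 2 cells held 50% of it. The ratio to the single GMP read was 1551-fold, with a counting interval of 278 to 61278.

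Per kilobase the class I myosins summed to 147 CPM per kb in BMCP and 63 in GMP. In BMCP the order was Myo1f at 62 (42.3%), Myo1g at 45.6 (31.1%), Myo1e at 21.9 (14.9%), Myo1c at 12.1 (8.27%) and Myo1d at 4.32. In GMP it was Myo1f at 29.1 (46.2%), Myo1g at 20.0 (31.7%) and Myo1c at 13.7 (21.7%), with Myo1d at 0.0028 and Myo1e at 0. The same 2 genes led in both populations, and the quartile ranges of all neighbours in both orders overlapped. By the median of cells Myo1g led in BMCP, at 25.3 CPM per kb against 11.1 for Myo1f. It also led there in summed CPM without lengths, at 317 against 308. The summed order of these genes in BMCP therefore rested on their merged exon lengths, 6957 bases for Myo1g and 4970 for Myo1f. No exon window of 50 bases, the read length, was shared between any pair of the 9 genes. Of all Scin windows, 0.871% also occurred in other genes, and of Flii windows 0.301%, all in Llgl1.

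The start regions of 3 genes are shown because they span the patterns above: Scin and Myo1e, which were at or near 0 in GMP, and Myo1f, which was read in both populations. The sequences are the 250 bases before the annotated start, from RefSeq promoters on GRCm38.p6, which held 7 of the 9 genes. They lie at chr12:40134229-40134478 (Scin, minus strand), chr9:70207100-70207349 (Myo1e, plus strand) and chr17:33555457-33555706 (Myo1f, plus strand). Capitals mark matches on either strand to the motifs searched.
Scin: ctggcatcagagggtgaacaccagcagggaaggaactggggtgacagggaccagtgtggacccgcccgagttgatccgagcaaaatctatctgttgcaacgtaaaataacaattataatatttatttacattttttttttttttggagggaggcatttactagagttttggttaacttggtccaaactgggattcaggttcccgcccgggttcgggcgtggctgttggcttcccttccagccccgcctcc
Myo1e: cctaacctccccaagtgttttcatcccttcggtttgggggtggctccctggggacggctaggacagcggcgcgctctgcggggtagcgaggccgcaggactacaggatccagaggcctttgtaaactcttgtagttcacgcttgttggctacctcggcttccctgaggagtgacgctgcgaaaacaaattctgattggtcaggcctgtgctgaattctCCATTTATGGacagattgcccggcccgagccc
Myo1f: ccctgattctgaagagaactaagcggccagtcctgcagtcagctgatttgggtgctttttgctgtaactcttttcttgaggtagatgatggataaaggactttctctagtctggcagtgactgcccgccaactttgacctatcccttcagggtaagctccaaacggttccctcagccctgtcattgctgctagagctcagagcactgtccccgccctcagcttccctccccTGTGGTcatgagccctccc
The search took the GATA factor motif as AGATAA or as TGATAA. The core of ETS-type factors was GAGGAA, and the RUNX motif was TGTGGT or, as the other form, TGCGGT. AP-1 was searched as TGANTCA. The E-box of MITF, a mast cell factor, was CACGTG or its variant form CATGTG. The CArG box is the motif bound by serum response factor. Matches in these 3 regions did not overlap each other. Over the 300-base table windows, which also hold 50 bases from the start, Scin had no match, Myo1e had a CArG box (CCATTTATGG) beginning 32 bases before the start, and Myo1f had TGTGGT beginning 19 bases before the start and GAGGAA at base 31 after it. Of all 32851 promoter windows, 18.6% held the GATA letters, 28.3% GAGGAA, 22.4% RUNX, 7.81% AP-1, 20.4% the E-box and 1.63% a CArG box. These matches are descriptions of the letters and were not tested as sites.

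**Figure D3:**
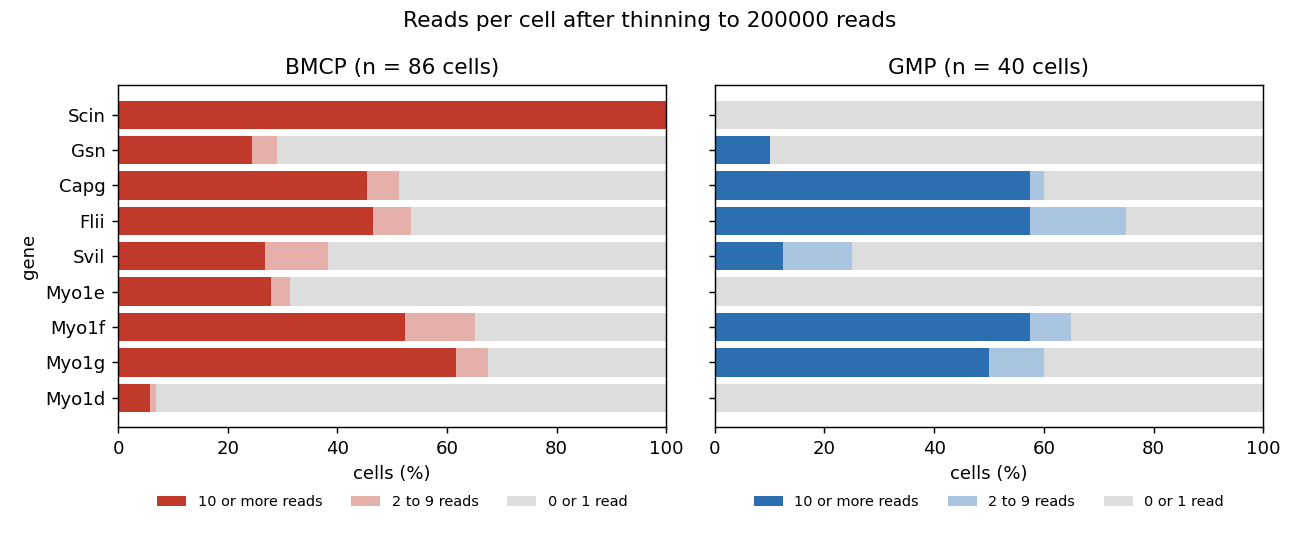
Share of thinned cells in percent (horizontal axis) with 10 or more reads (dark), 2 to 9 reads (light) and 0 or 1 read (grey) of each gene (vertical axis), for 86 BMCP on the left and 40 GMP on the right. Scin fills the BMCP bar and has 0 or 1 read in each GMP, Myo1e has a dark share of 27.9% in BMCP and none in GMP, and Capg, Flii, Myo1f and Myo1g have large shares on both sides.

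At 10 or more thinned reads, a BMCP held a median of 4 of the 9 genes (range 1 to 7) and a GMP 2 (0 to 5). The 9 genes were listed with their levels known, so no difference is read from this. Scin accounts for 1 of them in each BMCP and none in GMP. For the gelsolin family without Scin the medians were 1 and 1, and for the class I myosins 1 and 1. Over all genes, before thinning, the median number counted was 5440 in BMCP and 7001 in GMP. Leaving Scin out, the gelsolin family gave none of its 4 genes in 16 BMCP, 1 in 29, 2 in 31, 3 in 8 and all 4 in 2. In GMP the counts were 6, 16, 15 and 3 cells with none, 1, 2 and 3. Of the 4 class I myosins, 12 BMCP had none, 32 had 1, 32 had 2, 9 had 3 and 1 had all 4, and of the GMP, 8 had none, 21 had 1 and 11 had 2. A BMCP thus usually held Scin with a varying subset of the other genes, as the cell-by-cell map shows.

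**Figure D4:**
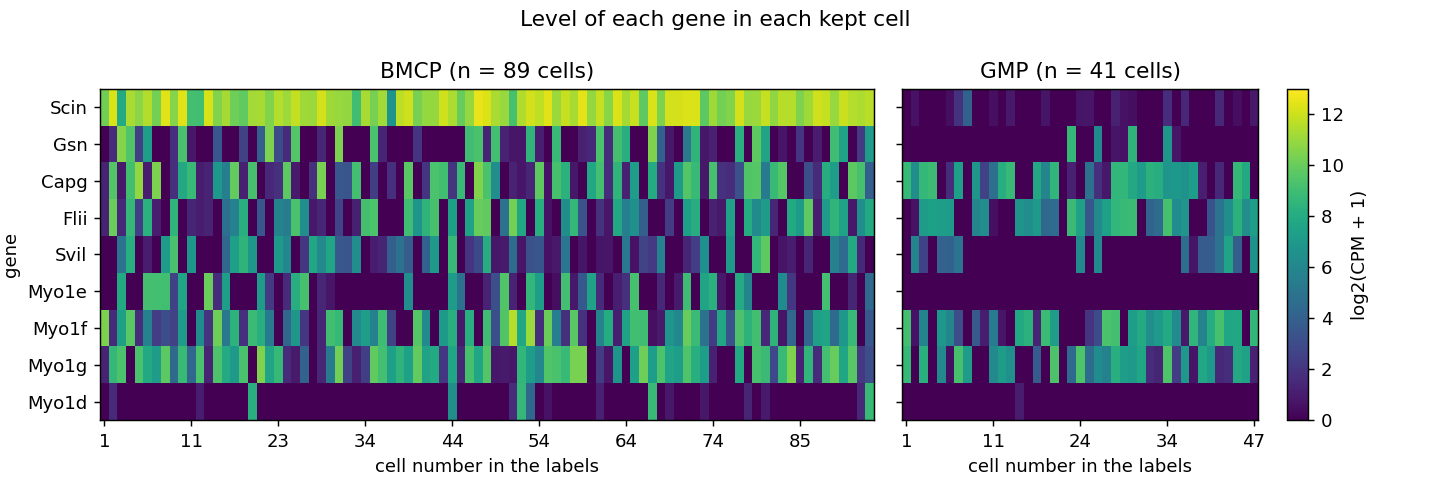
log2(CPM + 1) of the 9 genes (rows) in each kept cell (columns, in the order of the cell numbers in the labels) for 89 BMCP and 41 GMP. The Scin row is bright in all BMCP and dark in all GMP, and the other rows alternate between bright and dark cells, with the Myo1e row dark in all GMP.

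Within BMCP the 9 genes showed little common variation. Over the 36 pairs, the Spearman rho of CPM over 89 cells ran from -0.22 (Capg with Myo1f) to 0.23 (Scin with Myo1e), with a median of 0.03. In GMP the 28 pairs of the 8 genes with a read, which leave out Myo1e, ran from -0.36 to 0.50, and the highest was Gsn with Flii over 41 cells, in which Gsn had reads in 7. Cells of a population share their sort and differ in depth. Myo1e had a rho of 0.34 with the number of genes counted. These values are descriptions over cells of 1 sample and carry no p-value.

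Over all 130 cells the genes most like Scin by Spearman rho, among 4396 candidates detected in enough cells, were Gzmb (0.73), Trbv12-2 (0.69), Gpr183 (0.68), Trbv13-2 (0.68) and Itgb7 (0.68), and these values hold the difference between the populations. Itgb7 encodes the integrin chain on which BMCP were gated. Within BMCP the likest of 1866 candidates were Atp1b3 (0.37), Chchd7 (0.37), Igfbp4 (0.36), Mat2a (0.35) and Tubb4b (0.34). The likest gene within BMCP was Tram1 (0.39) for Capg, Smg1 (0.39) for Flii, Fxyd5 (0.35) for Myo1f and Chfr (0.40) for Myo1g. Within the 41 GMP it was Degs1 (0.62) for Capg, Ifi27 (0.58) for Flii, Zmiz2 (0.61) for Myo1f and Caprin1 (0.59) for Myo1g, from 4185 candidates. The values within BMCP are weak, and those within GMP are the highest of 4185 candidates over 41 cells. None of either is taken as a finding.

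BMCP were also split by lineage genes, as a description. Among the 20 thinned BMCP with 10 or more reads of the basophil protease gene Mcpt8, Myo1f reached 10 reads in 17, against 28 of the other 66. Flii did so in 5 of 20 and 35 of 66. For the mast cell protease gene Cma1, Myo1g reached 10 reads in 12 of the 27 cells with it and 41 of the 59 without it. Capg did so in 6 of the 24 cells with 10 or more reads of the erythroid, mast cell and basophil factor gene Gata1, and in 33 of the other 62. Scin reached 10 reads in every cell of each of these sets, with a median of 1739 CPM in Mcpt8-positive and 2682 CPM in other BMCP. These splits were picked from 36 comparisons for their size, so no difference between lineages is read from them.

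The wider actin machinery was taken from 11 lists of 113 genes, of which 100 had at least 1 CPM in either population. At least 2-fold higher in BMCP were 33 (33%), at least 2-fold lower 11 (11%) and within 2-fold 56, beside 25.8% and 21% of all genes. The median log2 ratio of the 100 was 0.43, beside 0.04 over all genes. With spike-in scaling the counts turned to 16 higher and 25 lower, beside 14% and 41.4% of all genes. The actin and monomer-binding list held 5 higher of 9 and 1 lower, cofilin and its regulators 4 and 0 of 12, barbed end capping 4 and 1 of 8, formins 5 and 2 of 9, crosslinkers and membrane linkers 8 and 2 of 17, and tropomyosins with myosin II 4 and 2 of 11. The Arp2/3 complex and the WASP family, which nucleate branched filaments, held 2 higher and 0 lower of 20, with a median of 0.20. Of the 8 other unconventional myosins, 0 were higher and 2 lower, and the 3 calmodulin genes, whose product is the light chain of class I myosins, lay within 2-fold.

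**Figure D5:**
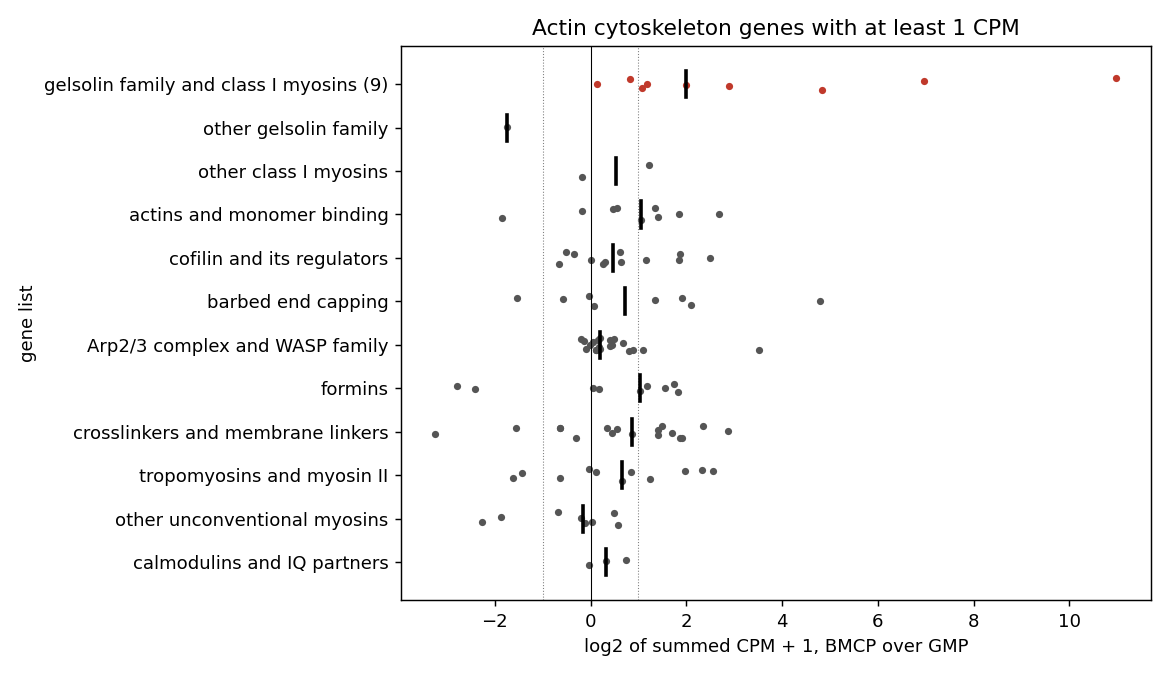
log2 of summed CPM plus 1, BMCP over GMP (horizontal axis), for the 9 genes in red and the 100 other actin cytoskeleton genes in grey by list (vertical axis), with black bars at list medians and dotted lines at 2-fold. Scin, at 10.98, and Myo1e, at 6.97, lie to the right of every other point, and most Arp2/3 genes lie between the dotted lines.

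Several partners of these proteins were highly read in both populations. Actb, the main non-muscle actin gene, stood at 15631 CPM in BMCP and 7563 in GMP (log2 1.05), the Arp2/3 subunit gene Arpc2 at 770 and 739, and the filament-binding Coro1a at 1590 and 1019. At least 4-fold higher in BMCP were the cofilin phosphatase gene Ssh2 (292 against 50.8 CPM), the spectrin-actin linker Add3 (232 against 53.4), the tropomyosin Tpm4 (139 against 22.8), the membrane-bound actin crosslinker Marcks (45.6 against 5.35, or 3.28 without GMP 40), Actg1 (27.7, or 17.2 without BMCP 51, against 3.49) and the capping protein regulator Carmil1 (27.3 CPM against 1 read). Actg1 shares 37.4% of its exon windows with other genes, so its level is uncertain, and Actb shares 9.12%. At least 4-fold lower were the formin genes Fmnl3 (7.68 against 45.4, or 3.65 without BMCP 62) and Inf2 (3.09 against 27.3, or 1.94 without BMCP 55 and 10.9 without GMP 14). The bundling protein gene Pls3 (1.27 against 20.6, or 0.0480 without BMCP 93 and 7.76 without GMP 46) and the unconventional myosin gene Myo7a (8.25 against 43.8, or 2.71 without BMCP 26) were also lower. The 4 lower genes each reached 10 reads in at most 3 of 86 BMCP.

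Other relatives of the 9 genes went differently. Vill was lower in BMCP, with 23.2 against 79.7 CPM (log2 -1.74), and reached 10 thinned reads in 5 of 86 BMCP and 12 of 40 GMP. Myo1c, the widely expressed short-tailed class I myosin, was at 79.9 and 90.1 CPM.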

How the data were processed

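Per the labels' protocols, single cells were sorted into plates, cDNA was made from oligo-dT primers in the presence of ERCC spike-ins and amplified with 23 PCR cycles, and Nextera XT libraries were read as single ends of 50 bases. The authors deposited unnormalized read counts for each gene in each cell. The tools were GSNAP and HTSeq 0.5.3p3 on mm10, per the submitters' processing notes, with an annotation release not given in the sources used here. Totals leave out reads without a gene (15.3% of reads), those of several genes (4.57%) and unaligned ones (29.4%). There are no molecular identifiers and strand is not marked.

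Symbols and coordinates came from GENCODE vM21 on GRCm38, and 45143 of 46078 gene rows matched. Kept cells had at least 50000 nuclear-encoded counts, 1000 genes, at most 10% mitochondrial counts and at most 50% spike-in reads, which left out 11 cells. Cells were sorted singly, and doublets were not called. CPM were computed here from summed nuclear-encoded counts, and ratios use a pseudocount of 1 CPM. Shares were taken after thinning to 200000 reads (86 BMCP, 40 GMP), with 2 or more reads as detected and 10 as an alternative. Limits are exact Poisson or Clopper-Pearson at 95%, and floors are 3 counts (0.0356 CPM in BMCP, 0.0540 in GMP). No test was run, since each population is 1 sample.

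The members and lists were chosen with earlier results of these data known. The text names the 9 genes, list genes at least 4-fold apart that reach 20 CPM in a population, the highest gene of the actin, cofilin and Arp2/3 lists, and genes among the 5 highest in Spearman rho with a member detected in at least 50% of thinned cells. Other genes are named as relatives or to describe a result. Some list members are not reported here by name. The steps were tested on simulated counts. Alternatives changed cell weights, scaling, pseudocount, filters, depth, detection limit and cells left out. Computation used numpy 2.4.6, scipy 1.17.1, pandas 2.3.3 and matplotlib 3.10.9 in Python 3.11.15.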

Additional observations from a re-analysis of the deposited data

Results flagged for a closer look

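The 11 cells left out by the filters were read for the same 9 genes. The left-out BMCP stood above the left-out GMP in 5 genes and below them in 4. No such share over all genes was computed for the left-out cells, so nothing is read from this count. The 5 left-out BMCP held 1125388 counts together and the 6 left-out GMP 1871815. Scin was at 212 CPM in the left-out BMCP, with 239 reads spread over 5 of 5 cells, against 1.60 CPM (3 reads) in the left-out GMP. Of these 3 reads, GMP 35 held 2 in 4803 counts, a higher share than the 30 in 299010 counts of BMCP 94. The separation of the 2 populations by Scin therefore holds for the kept cells only. Gsn was at 6.22 CPM, from 7 reads, against 0 reads. Svil was at 419 CPM in 2 cells, against 16 CPM, and 470 of its 471 reads came from BMCP 81. Myo1e was at 17.8 CPM in 3 cells against 0 reads, with 18 of 20 reads from BMCP 81. Myo1d was at 844 CPM, and all 950 reads came from BMCP 81, which was left out for 14% mitochondrial counts and held 13 Scin reads in 595132 counts. The other 4 genes were lower in the left-out BMCP: Myo1g stood at 11.6 CPM against 270 in the left-out GMP, Myo1f at 17.8 against 279, Capg at 3.55 against 64.1 and Flii at 125 against 176. With these cells added to the kept ones, 7 of the 9 genes were again at least 2-fold higher in BMCP, beside 25.8% of all genes.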

How the results depend on the processing

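Summed levels weight deep cells, and a read count per cell has no molecular identifier, so a level that rests on few cells is imprecise beyond its counting limits. No paired analysis was possible because the numbers in the labels only name cells, each population is 1 sample and no result comes from a test. The number of the 9 genes at least 2-fold higher in BMCP, 7, was 6 from the mean of cells, beside 25.9% of all genes. It was 6 in BMCP 1 to 47 alone (25% of all genes) and 5 with spike-in scaling (14%). With each cell left out in turn it ran from 6 (without BMCP 51) to 7. None of the 9 was at least 2-fold lower with any cell left out (0 to 0). From the median of cells, an alternative chosen after seeing the data, 4 were higher and 2 lower, and Myo1f turned to -0.12. The shares over all genes were not computed for the medians of cells, so nothing is read from counts based on them. The other actin genes, 33 higher and 11 lower, were 16 higher and 25 lower with spike-in scaling, beside 14% and 41.4% of all genes. With a pseudocount of 10 CPM they were 26 higher and 7 lower, beside 12.7% and 9.94% of all genes. From the median of cells they were 17 higher and 16 lower. With each cell left out they were 32 to 34 higher and 10 to 13 lower. The cause of these shifts was not tested. At 10 or more thinned reads in place of 2, detection fell to 57.5% of GMP for Flii, to 26.7% of BMCP and 12.5% of GMP for Svil and to 52.3% of BMCP for Myo1f.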

Other observations

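The nearest genes on each side were read for the same cells, with distances between gene ends on GRCm38. Around Scin, Arl4a, an ARF-like small GTPase gene 21.7 kb away, stood at 104 CPM in BMCP and 57.2 in GMP (log2 0.85), Ifrd1 at 59.7 and 92.7 (-0.63), and Lsmem1 had no read in either population. Etv1, an ETS factor gene 1189 kb away, was at 4.70 CPM in BMCP and 0 in GMP. Next to Myo1e, the cyclin gene Ccnb2, 7.93 kb away, was lower in BMCP, at 53.2 against 150 CPM (log2 -1.47), and Rnf111 was higher, at 92.2 against 28.8 (1.65). Adamts10, a metalloprotease gene 1.92 kb from Myo1f, stood at 363 CPM in BMCP and 58.2 in GMP (log2 2.62), a wider ratio than that of Myo1f itself, and the difference between the 2 ratios was not tested. The next genes at higher coordinates than Capg had ratios opposite in sign to its summed ratio, with Elmod3 at 14.7 against 35 CPM (log2 -1.20) and Retsat at 21.8 against 117 (-2.37).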
